A study of Mus musculus with 24 samples.

Results

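Clone 12 of the recombination named i7 is 1 recombined clone of mouse embryonic stem cells, and its RNA was compared here with that of the i7 parental line. Of the 24 libraries of the series, 4 belong to this comparison: 2 replicates of clone 12 (genotype recombined) and 2 of the i7 parental line (genotype control). They were picked by their labels, and 2 replicates of clone 7, another recombined clone of i7, are set beside them. The comparison, which sets chromosome 19 apart, was chosen with earlier results of these data known. All these cells are F121/9, a female F1 hybrid line with one genome of CAST/EiJ and the other of 129/Sv, so that a read covering a strain variant can be assigned to an allele. The cells grew on gelatin in serum-free 2i+LIF medium, which holds leukemia inhibitory factor, the MEK inhibitor PD0325901 and the GSK-3β inhibitor CHIR99021. What was recombined in i7 is not given in the sources used here. The design text calls the replicates biological duplicates, and nothing says what same-numbered replicates share. The p-values measure the spread between replicate libraries as pooled over all 24, not the spread of these 4 alone. With 1 clone, what is particular to clone 12 and what goes with the recombination cannot be told apart in this comparison.

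The design text names gene expression change upon recombination as the question. In 2i+LIF, the GSK-3 inhibitor stabilises β-catenin, which acts on Wnt target genes through TCF and LEF factors, and the MEK inhibitor lowers FGF-ERK signalling, a pair of conditions known to hold embryonic stem cells in a naive state. TFE3 and TFEB, transcription factors of lysosome genes, are also known in these cells, and folliculin (Flcn) keeps TFE3 out of the nucleus. The ATF4 response raises genes of amino acid synthesis and transport when amino acids are short or translation is held back.

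The 4 libraries held 7358368 and 10922801 counts in the parental line and 10556277 and 13258382 in clone 12. Embryonic stem cell genes were abundant in all 4. Pou5f1, which encodes OCT4, had 988 and 711 CPM in the parental and 871 and 608 in the clone 12 libraries. Nanog had 1048 and 1039 CPM in the parental and 1203 and 1202 in the clone 12 libraries. CPM are counts scaled to 1000000 of the TMM-adjusted library size. Of the markers of other cells, the 17 primitive endoderm genes summed to 1129.8 and 1099.98 CPM in the parental and 890.5 and 955.3 in the clone 12 libraries, largely from the laminin chains Lama1 (446 and 401, then 289 and 335) and Lamc1 (546 and 545, then 443 and 434), while the endoderm factor Gata4 had 2.37 and 2.48, then 4.45 and 3.33 CPM. The 14 neuroectoderm genes summed to 300.5 and 235.9 CPM in the parental and 221.3 and 240.2 in the clone 12 libraries, largely from Ncam1. The 16 feeder fibroblast genes summed to 109.8 and 129.7 CPM in the parental and 187.2 and 198.4 in the clone 12 libraries, with Col1a2, Col3a1, Postn, Lox, Acta2, Dcn, Lum and S100a4 at 0 counts. The clone 12 sums lay above the parental ones for feeder genes and below them for primitive endoderm genes, and the part of these cells in the results was not tested. Mitochondrial transcripts took 3.64% to 4.14% of the counts.

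With replicate numbers taken as pairs, 852 of 15723 tested genes off chromosome 19 were called in clone 12 (5.42%), 406 higher (2.58%) and 446 lower (2.84%). On chromosome 19, 167 of 530 were called (31.5%), 166 higher (31.3%) and 1 lower (0.189%). A gene was called at an adjusted p under 0.05 in edgeR's quasi-likelihood test, in 1 fit of the 24 libraries, with Benjamini-Hochberg adjustment over all 16253 tested genes. These counts rest on the pairing: without it, 4 genes were called (0.0246%), Gpnmb, Scube3 and Trim35 off chromosome 19 and Ablim1 on it (1006 genes had an unadjusted p under 0.05). Each other gene named below as called had an adjusted p of 0.0907 to 1.00 in edgeR without the pairs. Leaving out any of the 4 libraries lowered the count off chromosome 19, to 78 without parental replicate 1, 224 without parental replicate 2, 110 without clone 12 replicate 1 and 246 without clone 12 replicate 2. On chromosome 19 it became 17, 43, 20 and 55 in the same order. Against the same parental libraries clone 7 had 0 called genes in edgeR with the pairs, and 296 at an unadjusted p under 0.05. In bulk RNA, fewer cells that use a gene and less of its RNA per cell cannot be told apart.

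Off chromosome 19, the median called gene changed by 0.86 on the log2 scale in either direction. Among the 852 called genes, 161 higher and 163 lower ones changed at least 2-fold. Over all 15723 tested genes the 5th and 95th percentiles of the log2 change were -0.83 and 0.84. CPM of the clone 12 and parental libraries did not overlap in 811 of the 852, against 7589 of all 15723 genes (48.3%). Counts of each allele, which add up to the total, were tested in 736 of the called genes. They moved in the same direction in 726 (98.6%), against 72.1% of 11170 genes that were not called. The genes were called on the summed counts of these same libraries, so neither contrast is a check of the calls. The calls were spread over the genome, from 4.08% of tested genes on chromosome 6 to 8.60% on chromosome 14. Of 12262 protein-coding genes 317 rose and 391 fell (5.77% called), and of 1713 processed pseudogenes 58 rose and 11 fell (4.03% called). The share over all tested genes off chromosome 19 was 5.42%.

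The 12 highest and 12 lowest genes were named only if CPM of the groups did not overlap, so that separation is no further result. Gpnmb, a transmembrane glycoprotein of lysosomes and melanosomes and a known target of MITF and TFE factors, rose most among the genes selected for naming off chromosome 19. It had 6.96 and 5.84 CPM in the parental and 51.6 and 67.5 in the clone 12 libraries (chromosome 6, 49036546 to 49070929 on GRCm38). Both clone 12 libraries were several times above both parental ones, a log2 change of 3.23 (SE 0.18, adjusted p 6.70e-08 in edgeR, 3.75e-04 without the pairs). Clone 7 had 9.36 and 9.65 CPM. Aqp3, a channel for water and glycerol, had 60.6 and 61.7 CPM in the parental and 397 and 323 in the clone 12 libraries. The log2 change was 2.55 (SE 0.16, adjusted p 1.55e-07 in edgeR). S100a13, a calcium-binding protein, had 22.7 and 29.6 CPM in the parental and 107 and 132 in the clone 12 libraries. It rose by 2.19 on the log2 scale (SE 0.18, adjusted p 3.32e-06 in edgeR). The secreted protein Scube3, a BMP co-receptor, had 6.70 and 6.28 CPM in the parental and 25.3 and 25.1 in the clone 12 libraries. It changed by 1.96 (SE 0.21, adjusted p 5.98e-05 with and 0.0246 without the pairs), and an antisense transcript overlaps it.

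Further genes were called higher from low parental levels. Kif1a, a kinesin that carries synaptic vesicle precursors, had 2.50 and 5.31 CPM in the parental and 21.2 and 34.0 in the clone 12 libraries and a log2 change of 2.85 (SE 0.27). Crhr2, a receptor of the corticotropin-releasing hormone family, had 1.71 and 3.36 CPM in the parental and 12.7 and 14.7 in the clone 12 libraries (2.41, SE 0.27). Mybpc3, the cardiac myosin-binding protein C, had 1.71 and 1.86 CPM in the parental and 7.16 and 9.55 in the clone 12 libraries (2.22, SE 0.46). The clone 12 libraries were above the parental ones in each case, as the selection required. Srarp (2.14), Morf4l2, an X-linked chromatin gene that overlaps BC065397 on the other strand (2.17), Tmem211 (1.98) and Eprn (1.89) complete the 12 with the highest log2 changes, after Lef1, given with the Wnt genes.

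Among the genes that fell, Tarm1, an activating receptor of myeloid cells, had 13.1 and 6.81 CPM in the parental and 1.16 and 1.67 in the clone 12 libraries and changed by -2.70 (SE 0.36, adjusted p 4.90e-04). B4galnt2, a glycosyltransferase, had 23.7 and 13.7 CPM in the parental and 2.42 and 4.39 in the clone 12 libraries, a log2 change of -2.38 (SE 0.29). Tgm2, tissue transglutaminase, which cross-links proteins, had 41.3 and 45.2 CPM in the parental and 9.58 and 11.4 in the clone 12 libraries. Its clone 12 values lay well under its parental ones, and it changed by -2.05 (SE 0.16, adjusted p 3.24e-06). Smc1b, the cohesin subunit of meiosis, had 9.99 and 9.82 CPM in the parental and 3.58 and 1.97 in the clone 12 libraries (-1.88, SE 0.26). Trim35, of the TRIM family, had 84.5 and 84.4 CPM in the parental and 30.8 and 30.3 in the clone 12 libraries, with nearly equal replicates in each group. It fell by 1.47 on the log2 scale (SE 0.13, adjusted p 1.08e-05 with and 0.0114 without the pairs in edgeR). Trim35 is named for its call without the pairs and is not among the 12 lowest. The others of the 12 lowest were Ubap1l (-1.97), Serp2 of the endoplasmic reticulum (-1.78), the collagen chain Col26a1 (-1.72), the diacylglycerol kinase Dgkh (-1.67), Mst1, the macrophage-stimulating factor (-1.66), Epdr1 (-1.63), AI481877 (-1.58) and the acyl-CoA dehydrogenase Acad10 (-1.54). Mst1 overlaps Rnf123 on the other strand, and whether the counting used strand is not given in the sources used here.

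**Figure D1:**
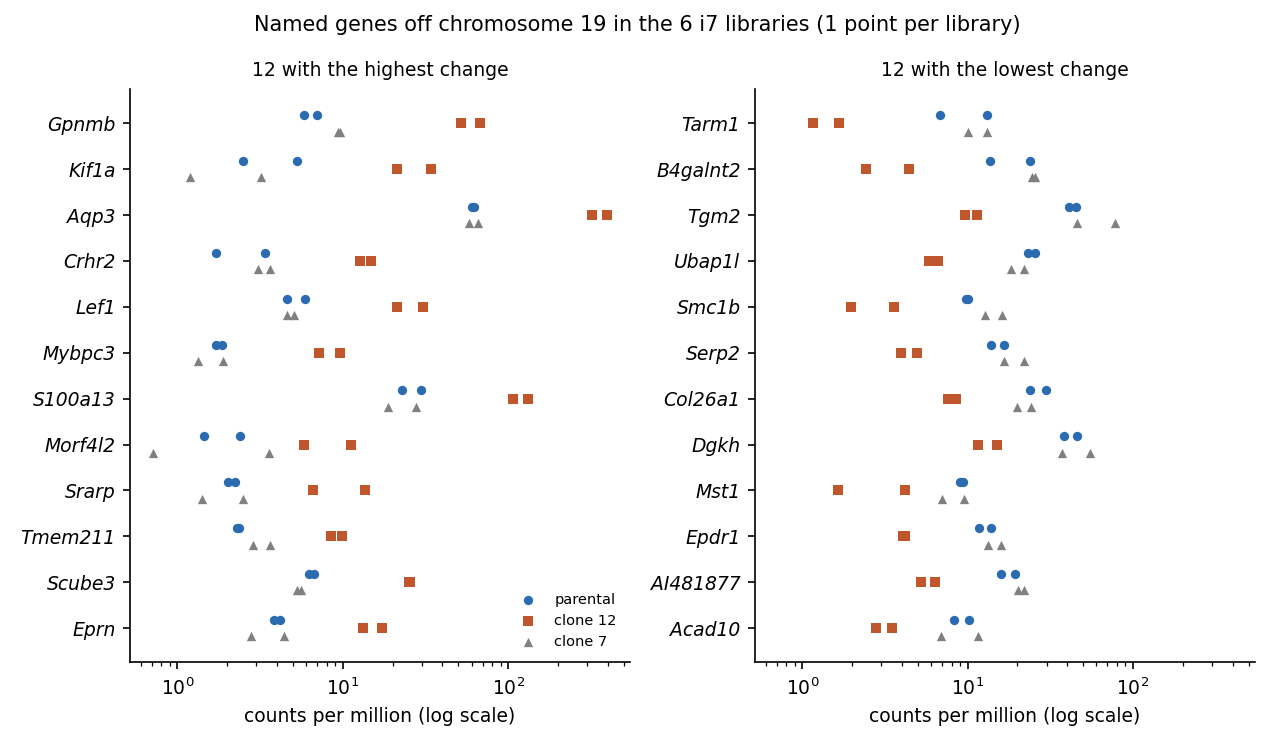
CPM (log axis) of the 12 genes with the highest and the 12 with the lowest log2 change off chromosome 19, 1 point per library, for the i7 parental line, clone 12 and clone 7. The clone 12 squares lie outside the parental circles for each gene, as the selection required, and Gpnmb runs from 5.84 in parental replicate 2 to 67.5 in clone 12 replicate 2.

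The 24 named genes were also called between clone 12 and clone 7. That contrast uses the same clone 12 libraries by whose values the genes were chosen, so it is no independent check of them. In all, 1384 genes off chromosome 19 (8.8%) were called there, 593 higher and 791 lower in clone 12, and 11 of them without the replicate block.

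Gene lists are described by their counts beside the 5.42% called off chromosome 19 and the median log2 change of -0.01 of all genes tested there. Wnt signalling genes and targets were called in 5 of 22 cases (22.7%), 4 higher and 1 lower, with a median of 0.43. Lef1, a TCF/LEF factor and itself a Wnt target, had 5.91 and 4.60 CPM in the parental and 30.5 and 21.4 in the clone 12 libraries, a log2 change of 2.29 (SE 0.25, adjusted p 6.96e-05). T, the Brachyury factor of early mesoderm, had 9.20 and 8.31 CPM in the parental and 43.7 and 19.9 in the clone 12 libraries (1.76, SE 0.22, adjusted p 3.28e-04). Replicate 1 of clone 12 was above replicate 2 in both genes, and both lay above the parental libraries. Sp5, a Wnt-responsive zinc finger factor, had 4.73 and 2.65 CPM in the parental and 18.6 and 6.14 in the clone 12 libraries (1.63, adjusted p 0.00888), and Axin2, a negative feedback inhibitor, had 26.1 and 20.3 CPM in the parental and 61.6 and 42.1 in the clone 12 libraries (1.14, adjusted p 6.58e-04). Sfrp1, a secreted inhibitor of Wnt ligands, was the member called lower, with 174 and 189 CPM in the parental and 103 and 113 in the clone 12 libraries (-0.75, adjusted p 0.00112). Left without 1 library in the same order as above, the list had 2, 4, 4 and 5 calls. The other 17 did not pass, among them Ctnnb1, which encodes β-catenin (0.27), Apc (0.00), Tcf7 (0.11) and Ccnd1 (0.39). Tcf7l2, another TCF factor, lies on chromosome 19 and had a log2 change of 0.83.

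The RefSeq promoter table (build GRCm38.p6), with 250 bases before and 50 after each start site, had rows for 4 of these 5 genes, and these were searched on both strands for the TCF/LEF letters CTTTGAT and CTTTGAA. Sp5 and T held a match and Lef1 and Axin2 none. Of 11 members that were not called, 1 held a match (Wnt5b). Of all 32851 promoters, 3.73% held CTTTGAT and 5.14% CTTTGAA. The stretches of Sp5 (chr2:70474759-70474885, plus strand) and T (chr17:8434173-8434254, plus strand) are shown because these are the called Wnt genes with a match, marked in capitals, and the match in T reads on the opposite strand.
Sp5: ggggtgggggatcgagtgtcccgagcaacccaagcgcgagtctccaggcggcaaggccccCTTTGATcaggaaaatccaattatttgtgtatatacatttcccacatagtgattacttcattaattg
T: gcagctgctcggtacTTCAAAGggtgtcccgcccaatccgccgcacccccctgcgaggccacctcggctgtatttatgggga
The match begins 104 bases before the start site of Sp5 and 235 before that of T. All promoters and motifs here were chosen after the expression values were seen. A match describes the letters and shows no binding.

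BMP, TGF-β and Nodal genes had 3 called of 21 (14.3%), all higher, while the median was -0.06. They were Scube3, the ligand Bmp4, with 29.96 and 24.9 CPM in the parental and 68.6 and 54.9 in the clone 12 libraries (1.17, adjusted p 5.79e-04), and the ligand Nodal, with 47.6 and 51.8 CPM in the parental and 71.5 and 74.7 in the clone 12 libraries (0.56, adjusted p 0.0416). Tdgf1, the Nodal co-receptor, did not pass (-0.25), nor did Id1 (0.36) or Smad7 (-0.46). Among FGF-ERK targets Etv5 was the 1 called of 15 and was lower (-0.43). The LIF and STAT3 list had 1 of 11, the kinase Pim3, higher (0.49). Leaving out any 1 of the 4 libraries left 2 calls in the first of these lists and 0 in the other two.

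Genes of the ATF4 response off chromosome 19 were called lower in 9 of 23 cases (39.1%) and higher in none, with a median of -0.42, and 3 of the 23 lay above 0. Atf5, a factor of the same response, had 109 and 81.7 CPM in the parental and 33.0 and 33.0 in the clone 12 libraries, a log2 change of -1.51 (SE 0.20, adjusted p 5.42e-04). Cth, which makes cysteine from cystathionine, had 250.4 and 235 CPM in the parental and 76.3 and 105 in the clone 12 libraries (-1.44, SE 0.16, adjusted p 9.02e-05). Both clone 12 libraries lay far under both parental ones in these genes. Without 1 library the count of 9 lower members became 3, 4, 3 and 5 (parental replicates 1 and 2, then clone 12 replicates 1 and 2), and DESeq2 called 8. The serine pathway enzymes Phgdh and Psph changed by -0.91 and -0.54 (adjusted p 0.00233 and 0.0291), from 209 and 183 CPM in the parental and 101 and 107 in the clone 12 libraries for the first. Pycr1, of proline synthesis, had 90.7 and 74.3 CPM in the parental and 53.8 and 43.0 in the clone 12 libraries (-0.77). Stc2, a secreted glycoprotein, changed by -1.11, the pseudokinase Trib3 by -0.69, the stress protein Nupr1 by -0.54 and the amino acid transporter Slc7a5 by -0.42. Atf4 itself did not pass, at 275 and 219 CPM in the parental and 249 and 211 in the clone 12 libraries (-0.10, adjusted p 0.787), its groups overlapping, and neither did Asns (-0.34), Slc7a11 (0.28) or Atf3 (-0.13). Of the 4 members on chromosome 19, Psat1, the enzyme between Phgdh and Psph, was called higher, with 1344 and 1296 CPM in the parental and 1978 and 1799 in the clone 12 libraries (0.51, adjusted p 0.0167).

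The composite site bound by ATF4 with a C/EBP partner (TGATGNAAT, both strands) was found in 0.965% of all promoters. Rows existed for 7 of the 9 called genes, of which Pycr1 and Nupr1 held it, and for 12 members that were not called, of which 0 held it. Both are shown as the called members with the site, in capitals, from Pycr1 (chr11:120643783-120643911, minus strand) and Nupr1 (chr7:126625513-126625641, minus strand, with the site on the opposite strand).
Pycr1: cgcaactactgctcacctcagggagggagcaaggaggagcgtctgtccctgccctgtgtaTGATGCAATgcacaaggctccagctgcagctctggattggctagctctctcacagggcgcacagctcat
Nupr1: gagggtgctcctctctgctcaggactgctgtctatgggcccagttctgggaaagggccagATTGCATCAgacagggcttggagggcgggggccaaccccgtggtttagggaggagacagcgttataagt
The matches begin 103 and 111 bases before the start sites. Both genes fell, by 0.77 and 0.54 on the log2 scale.

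Chaperones of the endoplasmic reticulum had 3 called of 16 (18.8%), all higher, and a median of 0.19. Hspa5, the chaperone BiP, had 104 and 117 CPM in the parental and 277 and 224 in the clone 12 libraries, a log2 change of 1.18 (SE 0.17, adjusted p 6.37e-04). Calr, the lectin chaperone calreticulin, had 157 and 188 CPM in the parental and 326 and 323 in the clone 12 libraries (0.92, adjusted p 0.00217), and Hsp90b1, the chaperone GRP94, had 139 and 170.2 CPM in the parental and 220.0 and 223 in the clone 12 libraries (0.53, adjusted p 0.0145). The clone 12 libraries of all 3 lay above the parental ones. Without 1 library 0, 2, 1 and 3 of them were called, in the order used above. Xbp1 (0.29), Herpud1 (0.10), Dnajb9 (-0.12) and Pdia4 (0.20) did not pass, and Syvn1 on chromosome 19 was called higher (0.72). The list of heat shock proteins had 3 called of 13 (23.1%), all higher: Hspa8 (0.59), Hspb1 (0.62) and Hsp90aa1 (0.42). Its median was 0.31, and 11 of the 13 lay above 0. Hsp90aa1 went from 5897 and 5657 to 7591 and 7852 CPM, and Hspb1 from 421 and 742 to 786 and 944 CPM. Hspa4, a cytosolic chaperone outside this list, was called lower (-0.82). Without 1 library this list had 0, 0, 0 and 1 calls. Hsf1, the heat shock factor, was not called (-0.12).

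The endoplasmic reticulum stress element (searched on both strands), known from promoters of genes such as BiP, was in 0.119% of all promoters, in all 3 of the called chaperone genes and in 4 of the 11 others with a row (Canx, Creld2, Dnajc3 and Pdia6). The stretches of Hspa5 (chr2:34771965-34772089, plus strand), Calr (chr8:84847015-84847153, minus strand) and Hsp90b1 (chr10:86705578-86705694, minus strand) are shown because they share the element, in capitals, which reads on the opposite strand in Calr.
Hspa5: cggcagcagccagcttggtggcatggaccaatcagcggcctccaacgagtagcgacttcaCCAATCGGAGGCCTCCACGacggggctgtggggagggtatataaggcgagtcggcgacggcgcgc
Calr: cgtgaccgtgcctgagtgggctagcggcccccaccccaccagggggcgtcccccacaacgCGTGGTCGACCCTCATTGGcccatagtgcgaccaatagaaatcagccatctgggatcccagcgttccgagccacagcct
Hsp90b1: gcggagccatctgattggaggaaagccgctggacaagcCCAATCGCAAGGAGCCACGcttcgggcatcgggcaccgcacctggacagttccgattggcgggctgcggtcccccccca
The element begins 65 bases before the start site in Hspa5, 162 in Calr and 212 in Hsp90b1, which holds another match on the opposite strand 107 bases before the start site.

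Lysosome, autophagy and TFE3 or TFEB target genes had 7 called of 50 (14%), all higher, with a median of 0.14. Beside Gpnmb they were Rragd, a Rag GTPase of the mTORC1 pathway, with 22.7 and 18.8 CPM in the parental and 39.9 and 35.9 in the clone 12 libraries (0.87, adjusted p 0.0154), Flcn, with 30.6 and 36.6 CPM in the parental and 48.5 and 56.3 in the clone 12 libraries (0.64, adjusted p 0.0118), and the autophagy receptor Sqstm1 (0.62). The autophagosome protein Map1lc3b (0.56), the cholesterol carrier Npc2 (0.55) and the protease Ctsa (0.41) completed them. Leaving out any 1 of the 4 libraries left 1 call in this list. The E-box letters CACGTG and TCATGTG, found in 7.15% and 3.77% of all promoters, were present in Ctsa and absent from the 300-base windows of the other 6, and present in 19 of 34 members that were not called.

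Glycolysis and hypoxia genes had 5 called of 32 (15.6%), with 4 higher and 1 lower and a median of 0.20. Without 1 library, in the same order, 0, 4, 1 and 3 were called. The glucose transporter Slc2a3 had 688 and 770.0 CPM in the parental and 1109.9 and 1206 in the clone 12 libraries (0.67, adjusted p 0.00323), and the hypoxia-responsive genes Ankrd37, Egln3 and Ndrg1 changed by 1.67, 1.00 and 0.91. Vegfa, another hypoxia-responsive gene, was lower (-0.70). Pgam1, a glycolytic enzyme on chromosome 19, was called higher (0.80). Among sterol synthesis genes the early enzyme Hmgcs1 was called higher (0.60), and fatty acid synthesis had 1 of 11, Fasn, higher (0.80). Neither gene was called when any 1 of the 4 libraries was left out.

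The naive pluripotency list holds embryonic stem cell markers in general, Pou5f1 and Lin28a among them. It had 2 called of 20 (10%) and a median of -0.10. Lin28a, an RNA-binding protein that blocks let-7 processing, had 217 and 233 CPM in the parental and 489 and 439 in the clone 12 libraries (1.04, SE 0.13, adjusted p 2.62e-04), with both clone 12 libraries above both parental ones. Nr0b1, an X-linked nuclear receptor, was lower (-0.64, adjusted p 0.00756). Pou5f1 (-0.20), Sox2 (-0.30), Nanog (0.20), Klf4 (0.04), Esrrb (-0.13) and Tfcp2l1 (-0.07) did not pass the test. The separate list of formative and primed pluripotency had 2 called of 10 (20%), 1 higher and 1 lower, with a median of 0.08. The higher one was Lef1, already counted with the Wnt genes. Of the DNA methylation genes Dnmt3l, a cofactor of the de novo methyltransferases, was the 1 called of 13 and had 60.7 and 59.0 CPM in the parental and 139 and 138 in the clone 12 libraries (1.21, adjusted p 0.00563). Dnmt3a (0.30), Dnmt3b (0.42), Dnmt1 (0.06) and Tet1 (-0.06) did not pass. Germline genes under methylation control had 2 of 14 lower, Stk31 (-1.01) and Piwil2 (-0.95), and of 2 tested 2-cell-like genes edgeR and DESeq2 called 0, none at an unadjusted p under 0.05. Imprinted genes had 4 called of 38 (10.5%): Peg10 (1.40), Peg3 (1.13) and Impact (0.47) higher and Trappc9 lower (-0.77). Without 1 library the naive list had 1 call each time, the germline list 0, 1, 0 and 0, the imprinted list 0, 2, 0 and 2, and the DNA methylation list 0 each time.

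Of 12 primitive endoderm markers tested Sparc was called (8.33%) and was higher (0.49), while the list's median was -0.08, 4 of the 12 lay above 0 and the summed CPM was lower in both clone 12 libraries. T of 5 mesendoderm markers and Krt8 of 6 trophoblast markers (0.88) were higher. Of 5 neuroectoderm markers Tubb3, a neuronal tubulin, was higher, with 14.8 and 20.3 CPM in the parental and 45.3 and 42.7 in the clone 12 libraries (1.31), and Ncam1 lower (-0.63). Of 6 feeder fibroblast markers tested Vim (0.78) and Thy1 (0.66), both also expressed outside fibroblasts, were higher. Matrix genes had Ccn2 (1.65) and Sparc higher and Nid1 (-0.82) and Spp1 (-0.41) lower of 22. Adhesion and cytoskeleton genes had Vim and Krt8 higher and the integrins Itgb1 (-0.53) and Itgb5 (-0.82) lower of 32. Of 19 nuclear lamina and inner membrane genes 1 was called, Lmna, which encodes lamins A and C, with 26.3 and 41.7 CPM in the parental and 49.1 and 67.4 in the clone 12 libraries (0.79, adjusted p 0.00398). Lmnb1 (0.14) and Lbr (-0.03) were not called. Without 1 library the neuroectoderm list had 0, 2, 1 and 2 calls, the feeder list 0, 1, 1 and 1, the matrix list 0, 2, 0 and 1, the adhesion list 0, 2, 0 and 2 and the lamina list 0, 1, 0 and 0. The primitive endoderm and trophoblast lists then had 0 each time, and T was called each time.

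Off chromosome 19 the test called 1 of 74 cytosolic ribosomal proteins (1.35%, Rps26, 0.53), though 68 of the 74 lay above 0 with a median of 0.20. Ribosome biogenesis had 2 of 22 (9.09%), Npm1 (0.57) and Fbl (0.54), DNA replication 1 of 24 (4.17%), Mcm7 (0.43), and p53 targets 1 of 26 (3.85%), Rrm2b (-0.99). The interferon list had 2 of 15 (13.3%), Tap1 higher (1.94) and H2-K1 lower (-0.61), but DESeq2 called 0, and 4 had an unadjusted p under 0.05 in edgeR. Without 1 library ribosome biogenesis had 0, 1, 0 and 1 calls, ribosomal proteins 0, 0, 0 and 1, and the other 3 lists 0 each time. No call was made by edgeR or DESeq2 among 28 proteasome genes (2 at an unadjusted p under 0.05), 22 mitosis genes (2), 24 Polycomb and H3K9 methylation genes (2), 22 NRF2 genes (6), 36 nuclear-encoded respiratory chain genes (1) and 11 mitochondrially encoded ones (1).

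Clone 7 shares the parental libraries with this comparison, and its own list medians off chromosome 19 were 0.01 for ATF4, -0.11 for Wnt, 0.03 for the endoplasmic reticulum chaperones, 0.05 for heat shock proteins, 0.04 for lysosome and -0.11 for glycolysis and hypoxia genes. None of these lists had a call there in edgeR, as no gene did.

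**Figure D2:**
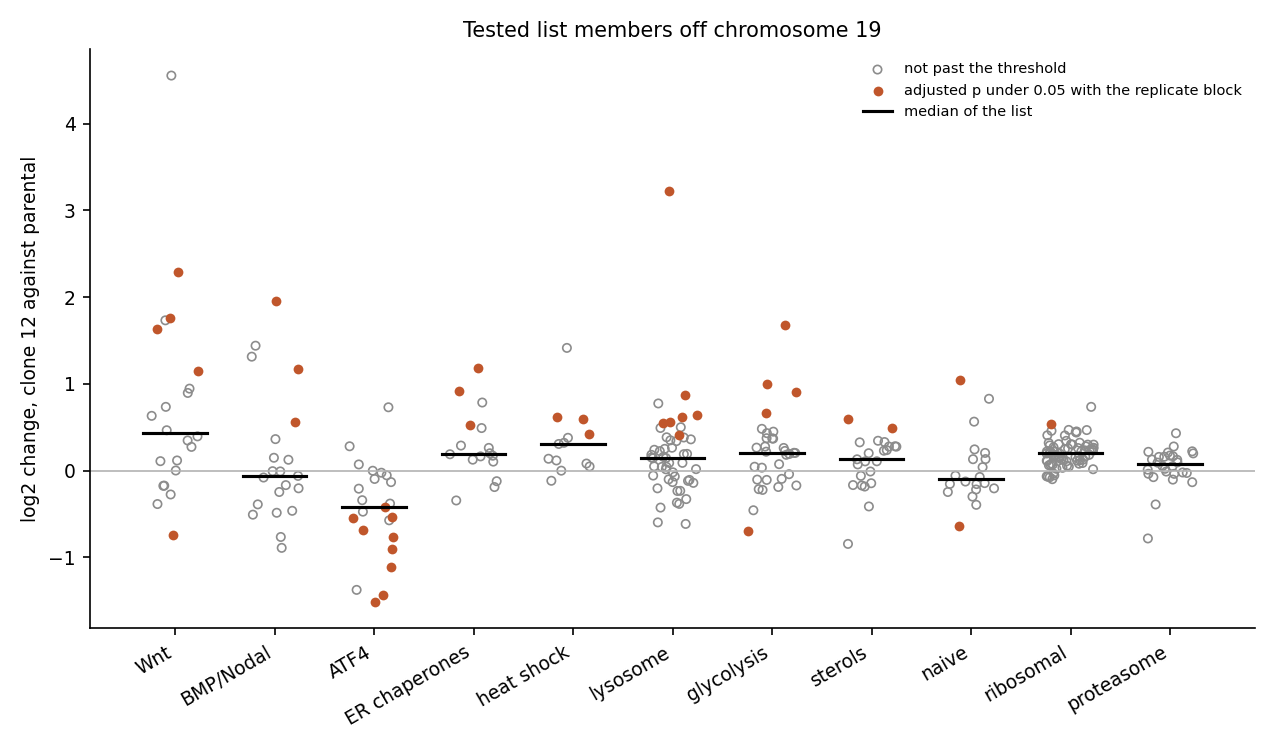
Log2 change of each tested member off chromosome 19 in 11 lists (vertical axis), filled where called with the pairs, with the list's median as a bar. The ATF4 list lies mostly under 0 (median -0.42) and the Wnt list mostly above (median 0.43), and the open point at 4.55 in the Wnt list is Cdx2, with 0 counts in both parental libraries and a fitted value that depends on the prior count.

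Total counts of the median gene of chromosome 19 were higher by 0.47 and 0.49 on the log2 scale in the 2 pairs of clone 12 and parental libraries (mean 0.48 ± 0.013, SD, n = 2), a factor of 1.40. In CAST counts alone the shift was 0.92 and 0.86 (0.89 ± 0.040), a factor of 1.86, and in 129S1 counts 0.02 and -0.03 (mean 0.00 ± 0.029). The medians of the other 19 chromosomes lay from -0.05 to 0.02 in total, from -0.08 to 0.00 in CAST and from -0.10 to 0.12 in 129S1 counts, where chromosome X, with 65 such genes, was the highest. With 2 pairs no exact test was made. In clone 7 the median gene of chromosome 19 changed by -0.02 in total, CAST and 129S1 counts.

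**Figure D3:**
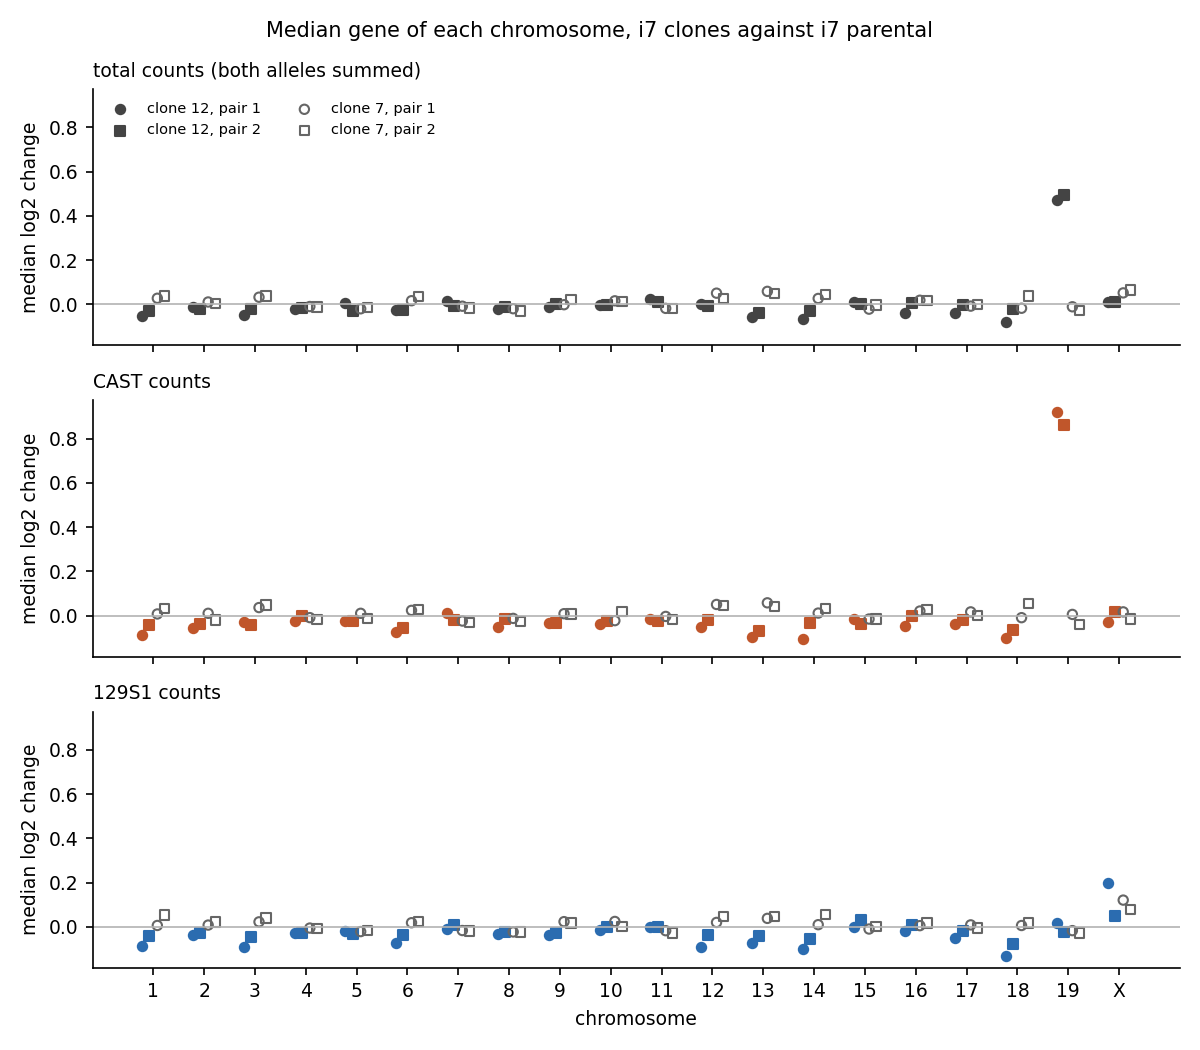
Median log2 change of the genes of each chromosome against the i7 parental library of the same number, in total, CAST and 129S1 counts, with clone 12 filled and clone 7 open. Chromosome 19 of clone 12 stands at 0.47 and 0.49 in total and at 0.92 and 0.86 in CAST counts, while its 129S1 points lie near 0.

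Chromosome 19 took 3.61% and 3.65% of the nuclear counts in the parental libraries and 4.98% and 4.95% in clone 12. Over the 22 libraries other than clone 12 the range was 3.32% to 3.65%. In its 363 genes with enough counts of both alleles, the 129S1 share was 51.7% and 53.6% in the parental libraries and 40.0% and 41.6% in clone 12, against 51.4% to 54.3% in those 22. The CAST change was above 0 in 345 of the 363 and the 129S1 change in 183. CPM of the clone 12 and parental libraries did not overlap in 401 of its 530 tested genes (75.7%). The shift ran along the chromosome: in bins of 10 Mb the CAST median was 0.66 to 0.95, with 7 genes in the lowest bin and 0.83 to 0.95 in the other 6 bins, and the 129S1 median was -0.11 to 0.08. DNA copy number was not analysed here.

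**Figure D4:**
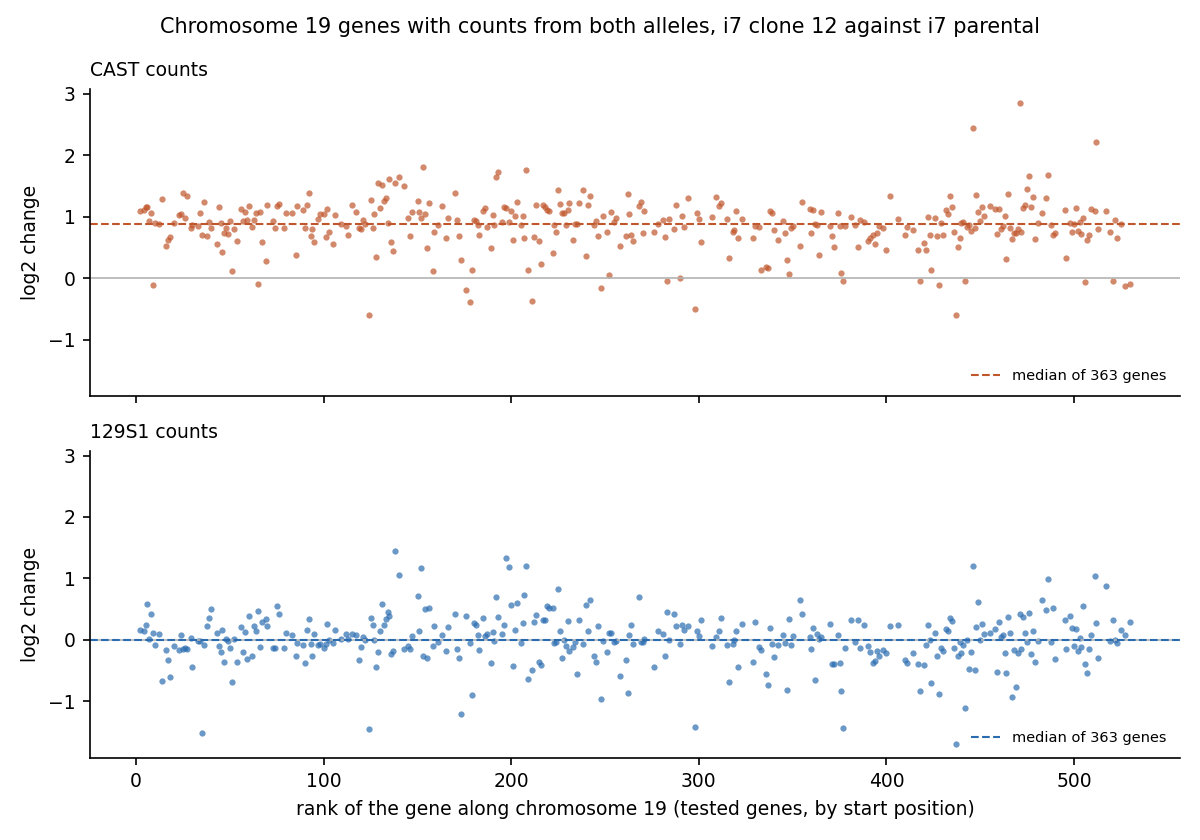
Log2 change of 363 chromosome 19 genes in order along the chromosome, in CAST counts (top) and 129S1 counts (bottom), clone 12 against parental, with the median dashed. The CAST points scatter around 0.88 over the full length of the chromosome and the 129S1 points around 0.00.

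Each allele was also tested alone. In CAST counts 275 of 475 chromosome 19 genes were called (57.9%), all higher, against 561 of 13476 elsewhere (4.16%), 273 higher and 288 lower. In 129S1 counts 28 of 463 were called (6.05%), 21 higher and 7 lower, against 505 of 13456 elsewhere (3.75%), 266 higher and 239 lower. Without the pairs these counts were 45 and 14 in CAST and 0 and 0 in 129S1 counts in edgeR, where 654 genes off chromosome 19 and 35 on it had an unadjusted p under 0.05 in 129S1 counts.

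The genes that moved with the chromosome have many roles. A list of 96 tested genes of known function, 95 of them on chromosome 19, had 50 called higher and none lower. Over the chromosome 31.3% were called higher, but the list was chosen with earlier results of these data known. Its larger share is therefore no result about genes of known function. Psat1 of serine synthesis changed by 0.91 in CAST and -0.03 in 129S1 counts. The ribosome biogenesis factor Nolc1 had 356 and 377 CPM in the parental and 692 and 592 in the clone 12 libraries (0.80, CAST 1.15, 129S1 0.26), and the mitotic kinesin Kif11 221 and 218 CPM in the parental and 316 and 303 in the clone 12 libraries (0.50, CAST 0.85, 129S1 0.06). The endocytic ATPase Ehd1 (0.74), the desaturase Scd2 (0.60), the cohesin subunit Smc3 (0.57), the chromatin remodeller Hells (0.58), the Wnt co-receptor Lrp5 (0.83), the kinase Jak2 (0.75) and menin (Men1, 0.69) were among the 50. The CAST change exceeded the 129S1 change in genes such as Ehd1 (1.25 and 0.24) and Scd2 (0.97 and 0.12). Eef1g (0.65 in CAST and 0.73 in 129S1) and Pgam1 (0.82 and 0.75) had close values in both alleles. Pgam1 has near-identical processed copies, and one of them, Pgam1-ps1 on chromosome 11, was also called higher (1.27), as was Npm3-ps1 on chromosome 6 (1.03), whose parent Npm3 lies on chromosome 19. Reads of parent and copy may have been divided between them, so these values are uncertain.

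Tested against the chromosome's own median of 0.50 instead of 0, 31 of the 530 genes were called (5.85%), 13 above and 18 below, and 0 without the pairs (33 at an unadjusted p under 0.05 in edgeR). Ablim1, an actin-binding LIM protein, had 39.7 and 41.9 CPM in the parental and 166 and 142 in the clone 12 libraries, a log2 change of 1.92 against 0 and 1.42 against the chromosome (adjusted p 6.96e-05). Its change was 2.20 in CAST and 0.28 in 129S1 counts. Ina, a neuronal intermediate filament that overlaps Nt5c2 on the other strand, had 2.23 and 2.03 CPM in the parental and 9.87 and 8.56 in the clone 12 libraries (1.60 against the chromosome). Above it too were Kcnip2, a potassium channel partner (1.16), the exchange factor Rasgrp2 (1.01), the synaptic adhesion protein Nrxn2 (0.98) and the G-protein subunit Gng3, which overlaps Bscl2 (0.74). Below it were Slc3a2, the heavy chain that pairs with Slc7a5, with 1015 and 962 CPM in the parental and 843 and 801 in the clone 12 libraries (-0.77, adjusted p 0.00132), and Vldlr, a lipoprotein receptor on the ATF4 list, with 17.9 and 16.8 CPM in the parental and 8.13 and 10.3 in the clone 12 libraries (-1.40, adjusted p 0.0136). Pkd2l1 (-0.93), Cpn1 (-0.96), Rbm14 (-0.78) and AC137605.4, inside Kif11 on the same strand (-0.74), were the other named ones. None of these 6 was called against 0, with log2 changes of -0.24 to -0.90. Slc3a2 counts of the 129S1 allele fell by 0.90 on the log2 scale and those of CAST changed by 0.12.

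Within libraries, 129S1 counts were then tested against CAST counts of the same gene, over 10789 genes with at least 10 counts per allele on average. On chromosome 19 this allelic ratio was called lower in 225 of 382 genes (58.9%), with a median change of -0.92 over the 382. The called genes with ratio changes furthest above that median were Ostf1 (-0.49), Stip1 (-0.54) and Chuk (-0.56), and those furthest below were Ina (-2.45), Pold4 (-2.29) and Fkbp2 (-2.11). Pold4 and Fkbp2 rest on few counts, from 4 to 30 of 129S1 in each parental or clone 12 library.

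Off chromosome 19 the ratio was called in 27 of 10407 genes (0.259%), 13 towards 129S1 and 14 towards CAST. With the replicate numbers as pairs it was called in 62, and leaving out 1 library gave 6, 14, 10 and 9 (parental replicates 1 and 2, then clone 12 replicates 1 and 2). Hspa4, a cytosolic chaperone of the HSP110 family, had a 129S1 share of its counts of 56.1% and 55.9% in the parental and 32.3% and 33.1% in the clone 12 libraries. In 129S1 counts it changed by -1.57 and in CAST counts by -0.20, and its total was called lower (-0.82, adjusted p 5.27e-04). The log2 ratio changed by -1.39 (SE 0.13, adjusted p 2.32e-06 in edgeR). Sfmbt2, a Polycomb group gene that is imprinted in mouse, had a 129S1 share of 88.5% and 89.5% in the parental and 98.5% and 97.2% in the clone 12 libraries, a change of 2.42 (SE 0.27). Its total count was called higher (0.61, adjusted p 0.0486), with 129S1 counts at 0.78 and CAST counts at -1.70, and small RNA genes lie inside it. For Gpnmb the share was 45.3% and 47.0% in the parental and 25.5% and 25.3% in the clone 12 libraries, with both alleles higher (2.40 in 129S1 and 3.70 in CAST). Slc11a1, a metal transporter, had 85.7% and 78.7% in the parental and 54.3% and 54.7% in the clone 12 libraries, and its total count was called lower (-1.46). Naa11, an acetyltransferase subunit, had 15.2% and 16.7% in the parental and 6.79% and 8.21% in the clone 12 libraries and rose in total (0.61). Aldh9a1 (0.58) and the actin-severing destrin Dstn (-0.62) had smaller ratio changes.

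**Figure D5:**
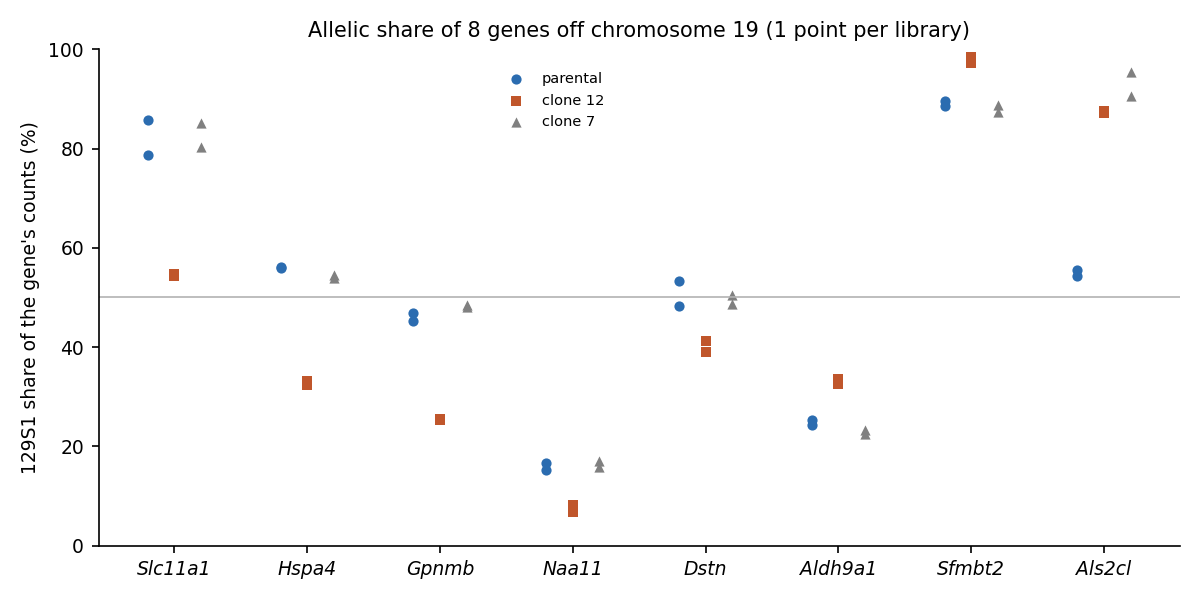
Share of each gene's counts assigned to 129S1, in percent, for the 8 named genes with the smallest adjusted p of the ratio off chromosome 19, 1 point per library. The clone 12 squares lie outside the parental circles in all 8, and those of clone 7 lie beside clone 12 in Als2cl, at 95.5% and 90.6%.

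Als2cl, on chromosome 9 (110879870 to 110900530), where it overlaps Tmie on the other strand, also had a high 129S1 share in clone 7. The share was 55.6% and 54.4% in the parental and 87.5% and 87.1% in the clone 12 libraries and 95.5% and 90.6% in clone 7, a ratio change of 2.48 (SE 0.30, adjusted p 2.21e-05). CAST counts were 107 and 155 in the parental libraries, 18 and 31 in clone 12, and 6 and 19 in clone 7. In total counts it changed by -0.94 (adjusted p 0.00647) in clone 12 and by -1.05 in clone 7, and the clones did not pass the test of their difference (0.11, SE 0.19, adjusted p 0.785). The 17 tested genes of chromosome 9 around Tdgf1, listed with results on them known, had 2 called, both lower: Als2cl and Rtp3, with 26.1 and 22.1 CPM in the parental and 12.4 and 12.96 in the clone 12 libraries (-0.92, adjusted p 0.0107). Rtp3 had 25.0 and 23.3 CPM in clone 7, and its difference between the clones was called (-0.92, adjusted p 0.00662). Epm2aip1 (-0.63), Lrrc2 (0.15) and Setd2 (0.17) did not pass. Without 1 library this list had 0, 0, 0 and 1 calls, in the order used above.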

How the data were processed

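RNA of 24 libraries was sequenced as single-end 75 bp reads (TruSeq Stranded mRNA, polyA), per the labels' protocols. The authors deposited 1 table of read counts per gene with a 129S1 and a CAST column per library. The submitters' processing notes name mm10, STAR and SAMtools. The counter, the use of strand and the treatment of reads without a strain variant are not given in the sources used here. Of 48985 gene IDs, 48838 matched GENCODE M21 (GRCm38), and the others held 0.0148% of counts.

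The columns of both alleles were summed. edgeR 4.0.16 in R 4.3.3 fitted all 24 libraries (TMM, filterByExpr, quasi-likelihood) with a term per group and a replicate block, the replicate number within each recombination, as the comparison was defined. The labels do not say that same-numbered replicates were handled together. Deviations of same-numbered i7 libraries from their group means correlated across genes at 0.498 (parental and clone 7), 0.358 (parental and clone 12) and 0.461 (both clones). 129S1 and CAST columns were fitted alike, and the 129S1 to CAST ratio within libraries (mean of at least 10 counts per allele, no block). CPM use effective library sizes, and the SE is the log2 change divided by the root of F. DESeq2 1.42.0, other scalings and filters, the 6 i7 libraries alone and leaving out each library were alternatives. The scripts were tested on simulated data.

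Named were, among called genes without overlap of CPM and with a mean of at least 50 counts, the 12 highest and 12 lowest off chromosome 19 and 6 on each side of the chromosome 19 median. Added were 8 genes by allelic ratio off chromosome 19, 3 on each side on it, called members of the gene lists, genes called without the block, and list members that define a list. Gene models with Gm or Rik names were left out. The comparison, lists and motifs were chosen with earlier results of these data known. Promoter sequences are from RefSeq. Some genes are not reported here.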

Additional observations from a re-analysis of the deposited data

Results flagged for a closer look

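The changes of clones 12 and 7 against the parental line were compared gene by gene in edgeR, as the log2 change of clone 12 minus that of clone 7, and the genes given here had an adjusted p under 0.05 for that difference. Each value in parentheses is that difference on the log2 scale, and positive values are higher in clone 12. The test pairs libraries by replicate number and rests on that pairing: without it, 11 of the 1384 genes called between the clones off chromosome 19 and 4 of the 203 on it were called. It also shares the clone 12 libraries with the comparison the genes were chosen from. Of the genes that rose most off chromosome 19, these differed: Kif1a (3.65), Gpnmb (2.64), Aqp3 (2.54), Mybpc3 (2.41), Lef1 (2.37), S100a13 (2.37), Srarp (2.35), Scube3 (2.22), Eprn (2.11), Crhr2 (2.03), Morf4l2 (2.00) and Tmem211 (1.49). Of those that fell most, these differed: Col26a1 (-1.45), Mst1 (-1.50), Acad10 (-1.55), Ubap1l (-1.68), Dgkh (-1.79), Epdr1 (-1.82), AI481877 (-1.85), Serp2 (-2.12), Smc1b (-2.41), Tgm2 (-2.54), B4galnt2 (-2.83) and Tarm1 (-2.96).

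In the ATF4 list the genes were Nupr1 (-0.54), Psph (-0.57), Trib3 (-0.65), Pycr1 (-0.88), Phgdh (-1.03), Stc2 (-1.20), Atf5 (-1.50) and Cth (-1.51). Among Wnt, BMP, FGF and LIF pathway genes they were Sp5 (2.21), T (1.79), Axin2 (1.38), Bmp4 (1.28), Nodal (0.72), Pim3 (0.51), Etv5 (-0.44) and Sfrp1 (-0.88). Among lysosome and autophagy genes they were Rragd (0.77), Flcn (0.71), Map1lc3b (0.61), Sqstm1 (0.58), Npc2 (0.51) and Ctsa (0.50). Among chaperones of the endoplasmic reticulum and heat shock proteins they were Hspa5 (0.98), Calr (0.95), Hspb1 (0.76), Hsp90b1 (0.51) and Hspa8 (0.50). Among metabolic genes they were Ankrd37 (1.51), Egln3 (1.20), Ndrg1 (0.88), Fasn (0.87), Slc2a3 (0.72), Hmgcs1 (0.50) and Vegfa (-0.55). Among pluripotency, methylation, germline and imprinted genes they were Peg10 (1.71), Dnmt3l (1.50), Lin28a (1.23), Peg3 (1.15), Nr0b1 (-0.66), Trappc9 (-0.82), Piwil2 (-1.23) and Stk31 (-1.35). Among lineage markers, matrix, adhesion and lamina genes they were Tubb3 (1.67), Ccn2 (1.62), Vim (0.95), Lmna (0.92), Krt8 (0.85), Thy1 (0.77), Spp1 (-0.60), Itgb1 (-0.65), Ncam1 (-0.65), Itgb5 (-0.89) and Nid1 (-1.03). In the remaining lists they were Fbl (0.51), Mcm7 (0.42), H2-K1 (-0.68), Rtp3 (-0.92) and Rrm2b (-1.27). By the allelic ratio or the fit without pairs, further genes off chromosome 19 were Sfmbt2 (0.85), Naa11 (0.58), Hspa4 (-0.87), Trim35 (-1.60) and Slc11a1 (-1.64).

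On chromosome 19, the genes named as above the chromosome median differed between the clones too, by values that include the shift of the whole chromosome: Ablim1 (1.76), Ina (1.73), Gng3 (1.59), Rasgrp2 (1.58), Nrxn2 (1.49) and Kcnip2 (1.43).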

How the results depend on the processing

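The number of calls depended on the replicate block, on which libraries shared the fit and on each single library. Without pairing by replicate number, total counts gave 3 calls off chromosome 19 and 1 on it, 129S1 counts 0 and 0, CAST counts 14 and 45, the test against the chromosome 19 median 0, and clone 12 against clone 7 11 and 4. The allelic ratio, whose main fit had no block, also had fewer calls off chromosome 19 without it, 27 against 62 with it. Among 158 named called genes, 4 kept their call without the block, 141 with DESeq2, 157 with DESeq2 size factors and 156 with scaling from genes off chromosome 19, and no direction turned. Leaving out parental replicate 1 or 2 kept 31 or 63 of these calls, and clone 12 replicate 1 or 2 kept 38 or 71. With the 6 i7 libraries alone, calls numbered 2998 off and 296 on chromosome 19 in total counts, 1712 and 70 in 129S1 counts, 1961 off it in CAST counts, 116 against the chromosome median and 3778 off it between the clones. With no filter on low counts 47 genes were called against the chromosome median. Leaving out 1 library gave 78 to 246 calls off and 17 to 55 on chromosome 19 in total counts, 38 to 127 and 3 to 8 in 129S1 counts, and 82 to 203 and 97 to 158 in CAST counts. It gave 6 to 14 and 139 to 160 for the allelic ratio, 2 to 5 against the chromosome median, and 227 to 420 and 38 to 81 between the clones. There the lone library of a group is assumed to vary like the other groups. The cause was not tested. The chromosome 19 shifts moved little, 0.47 to 0.49 in total and 0.86 to 0.92 in CAST counts. Depth limits genes of few counts: Pold4 and Fkbp2 had as few as 4 and 8 counts of 129S1 in a library.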
